A study of Mus musculus with 6 samples.

Results

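Prostaglandin synthesis and breakdown was followed through 10 genes chosen by name for their role in the pathway, among the 23352 genes listed for each library: the phospholipases Pla2g4a and Pla2g2e, the cyclooxygenases Ptgs1 and Ptgs2, the terminal synthases Ptges, Ptgis and Ptgds, the breakdown enzyme Hpgd and the prostaglandin E2 receptors Ptger2 and Ptger4. The genes were chosen with earlier results of these data known. All 10 were found in the files. RNA-seq was run on stromal cells of the omentum, the fatty fold of the peritoneum that carries the lymphoid clusters called milky spots, from wild-type C57BL/6 mice that had received no treatment named in the labels. Cells were sorted into 6 populations, P1 to P6, by CD45 (the leukocyte marker), CD140a (PDGFRα), CD105 (endoglin) and the activity of aldehyde dehydrogenase (ALDH), and each population gave 1 library. P1, P2 and P3 were CD45- CD140a+ CD105+ cells with high, intermediate and low ALDH, the populations that the study identified with fibroblastic reticular cells (FRCs). P4 and P5 were CD45- CD140a+ but CD105-, with intermediate and low ALDH, and P6 was CD45-, ALDH positive and low for CD140a. The age and sex of the mice, and how many mice went into each library, are not given in the sources used here. With 1 library per population there was no replicate check and no test: the intervals below are 95% intervals for counting error alone, and they do not cover differences between mice or sorts.

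Prostaglandins are made from arachidonic acid, which phospholipases A2 release from membranes. Cyclooxygenases turn it into prostaglandin H2, and terminal synthases then make the separate products: microsomal prostaglandin E synthase (Ptges) makes PGE2, prostacyclin synthase (Ptgis) makes prostacyclin, and prostaglandin D synthases make PGD2. Hpgd, the NAD-dependent 15-hydroxyprostaglandin dehydrogenase, inactivates PGE2 inside cells, and Ptger2 and Ptger4 (EP2 and EP4) are the PGE2 receptors that raise cyclic AMP. Ptgs1 is the cyclooxygenase that many cells make at a steady level, whereas Ptgs2 is induced by inflammatory and mechanical signals. FRCs of lymph nodes are known to make PGE2 through Ptgs2, and the mesothelial cells that line the peritoneum are a known source of prostacyclin.

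The levels divided the cyclooxygenases between the populations. Ptgs2 was highest in P1, at 111 FPKM (fragments scaled to transcript length and library size, the unit of all levels here), and lowest in P6, at 9.50. Ptgs1 went the other way, at 18.3 to 22.5 FPKM in the 3 CD105+ populations and 56.2 to 64.5 in the other 3. Ptgis, the prostacyclin synthase, had a profile like that of Ptgs1. Hpgd and Pla2g2e, like Ptgs2, were highest in P1 and lowest in P6, and Ptgds was above 1 FPKM in P6 alone.

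The DNA ahead of 4 of these genes is shown because their levels set P1, the CD105- populations and P6 apart. Each sequence is the 250 bases before a RefSeq start of the gene on GRCm38.p6, the assembly behind mm10, read 5′ to 3′ on the strand of the gene. Ptgs1 was taken from chr2:36230176-36230425 on the plus strand, Ptgs2 from chr1:150099781-150100030 on the plus strand, Ptges from chr2:30903298-30903547 on the minus strand and Pla2g2e from chr4:138877692-138877941 on the plus strand. Capitals mark exact matches on either strand to any of 6 short motifs: the TATA box (TATAAA), the CCAAT box (CCAAT), the GC box (GGGCGG), the E-box (CACGTG), the AP-1 site (TGACTCA) and the core of the cyclic AMP response element (TGACG).
Ptgs1: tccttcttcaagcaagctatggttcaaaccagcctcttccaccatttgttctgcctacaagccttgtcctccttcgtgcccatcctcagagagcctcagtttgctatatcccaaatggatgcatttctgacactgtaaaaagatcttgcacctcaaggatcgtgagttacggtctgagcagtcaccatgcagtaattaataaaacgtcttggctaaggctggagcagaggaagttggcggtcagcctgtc
Ptgs2: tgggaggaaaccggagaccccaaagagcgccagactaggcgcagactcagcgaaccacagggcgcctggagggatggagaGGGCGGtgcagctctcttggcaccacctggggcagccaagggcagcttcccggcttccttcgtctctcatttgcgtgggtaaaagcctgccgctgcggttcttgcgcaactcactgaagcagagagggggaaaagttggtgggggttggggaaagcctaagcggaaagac
Ptges: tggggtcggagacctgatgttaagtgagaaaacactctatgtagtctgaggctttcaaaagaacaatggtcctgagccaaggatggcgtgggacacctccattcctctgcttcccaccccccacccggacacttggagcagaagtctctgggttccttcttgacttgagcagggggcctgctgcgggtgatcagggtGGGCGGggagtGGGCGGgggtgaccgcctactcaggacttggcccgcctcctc
Pla2g2e: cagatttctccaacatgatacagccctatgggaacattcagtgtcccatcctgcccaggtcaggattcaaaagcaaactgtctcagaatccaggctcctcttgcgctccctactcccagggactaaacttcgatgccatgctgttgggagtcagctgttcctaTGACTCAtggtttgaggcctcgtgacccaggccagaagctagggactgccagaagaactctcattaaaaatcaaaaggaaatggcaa

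The cyclooxygenase windows differed in base composition, with 61.6% GC for Ptgs2 and 48.0% for Ptgs1, beside a median of 52.4% over 32851 RefSeq promoter windows of the same length. The Ptgs2 window held 1 GC box, 170 to 165 bases before the start, and the Ptgs1 window held none of the 6 motifs. Ptges had 2 GC boxes within 53 bases of the start used, and Pla2g2e had 1 AP-1 site, 87 to 81 bases before the start used. A GC box was present in 32.7% of all windows and an AP-1 site in 4.46%. The Ptgs1 and Ptges windows lie within the annotated spans of their genes, which also have starts further upstream. The Pla2g2e window ends at base 138877941, and the annotated gene begins at 138877911. The last bases of that window therefore lie inside the gene. Of the other members, Hpgd (1 GC box), Ptger4 (4 GC boxes, of which 2 overlap, and 1 CCAAT box), Ptger2 (1 CCAAT box), Ptgds (1 AP-1 site) and Pla2g4a (a TATA box in 1 of 2 windows) had entries, so that 9 of the 10 genes matched. Ptgis had no entry. A CCAAT box was present in 33.8% of all windows, a TATA box in 12.4%, an E-box in 6.02% and TGACG in 17.8%. These matches are letters in a window, and no binding was measured.

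Among the phospholipases, Pla2g4a, the cytosolic enzyme that prefers arachidonic acid, varied least of the 10 genes. Its level was 28.3 FPKM in P5, 21.3 in P4, 19.6 in P6, 17.1 in P3, 14.6 in P1 and 11.5 in P2, a highest over lowest ratio of 2.47. The CD105- populations were above the CD105+ ones, and each neighbouring pair in that order was separated by more than counting error.

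Pla2g2e, a secreted phospholipase A2, spanned a 67.9-fold range, from 22.6 FPKM in P1 through 11.3 in P2, 9.51 in P4, 7.33 in P3 and 3.01 in P5 to 0.333 in P6. P1 was 2.0 times P2 (1.78 to 2.25), the next population, and the value in P6 rested on 8 estimated reads. The study chose genes at least 2-fold above all other populations in P1 from these same libraries, a rule that Pla2g2e met, so its place in P1 is no independent evidence. The gene (chr4:138877911-138882817) lies beside Pla2g2c, Pla2g2f, Pla2g2d and Pla2g5, other secreted phospholipases, and none of those 4 reached 1 FPKM in any library. Pla2g2d, a secreted enzyme known from dendritic cells, came closest, at 0.982 FPKM in P3.

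The 10 genes lie on 6 chromosomes, and Pla2g4a (chr1:149829618-149961290) is the nearest neighbour of Ptgs2 (chr1:150100031-150108234) among genes annotated as protein coding on that side, with 138740 bases and 2 noncoding genes, Gm19136 and Ptgs2os, between them. Their levels did not run together, since Pla2g4a was highest in P5 and Ptgs2 in P1.

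Ptgs2 was at 111 FPKM in P1, 69.9 in P3, 48.0 in P4, 47.3 in P2, 31.8 in P5 and 9.50 in P6. P1 exceeded P3, the next population, 1.58-fold (1.55 to 1.62), and P6 was 3.35 times below P5 (3.17 to 3.54). P4 and P2 did not differ beyond counting error (ratio 1.01, 0.989 to 1.04).

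Ptgs1 was at 64.5 FPKM in P5, 63.9 in P4, 56.2 in P6, 22.5 in P1, 20.5 in P3 and 18.3 in P2. The CD105+ populations and the other 3 did not overlap: P6, the lowest of the latter, was 2.50 times P1 (2.39 to 2.61). P5 and P4 did not differ beyond counting error (1.01, 0.982 to 1.04), and their order turned under 2 of 4 other scalings of the libraries. Pla2g4a, Ptgis, Hpgd and Ptger4 also had no overlap between the CD105+ populations and the other 3. The share of all genes without such overlap was not taken, so this separation cannot be called particular to the members.

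The sum of both cyclooxygenases varied less than either the share of Ptgs2 or its level. The summed level was 133 FPKM in P1, 112 in P4, 96.3 in P5, 90.4 in P3, 65.7 in P6 and 65.6 in P2. Ptgs2 made up 83.1% of that sum in P1, 77.3% in P3, 72.2% in P2, 42.9% in P4, 33.0% in P5 and 14.5% in P6. The ratio of Ptgs2 to Ptgs1 therefore crossed 1 between the CD105+ populations, where it was 2.59 to 4.92, and the others, where it was 0.169 to 0.752. P2 and P6 had nearly the same summed level with opposite makeup.

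**Figure D1:**
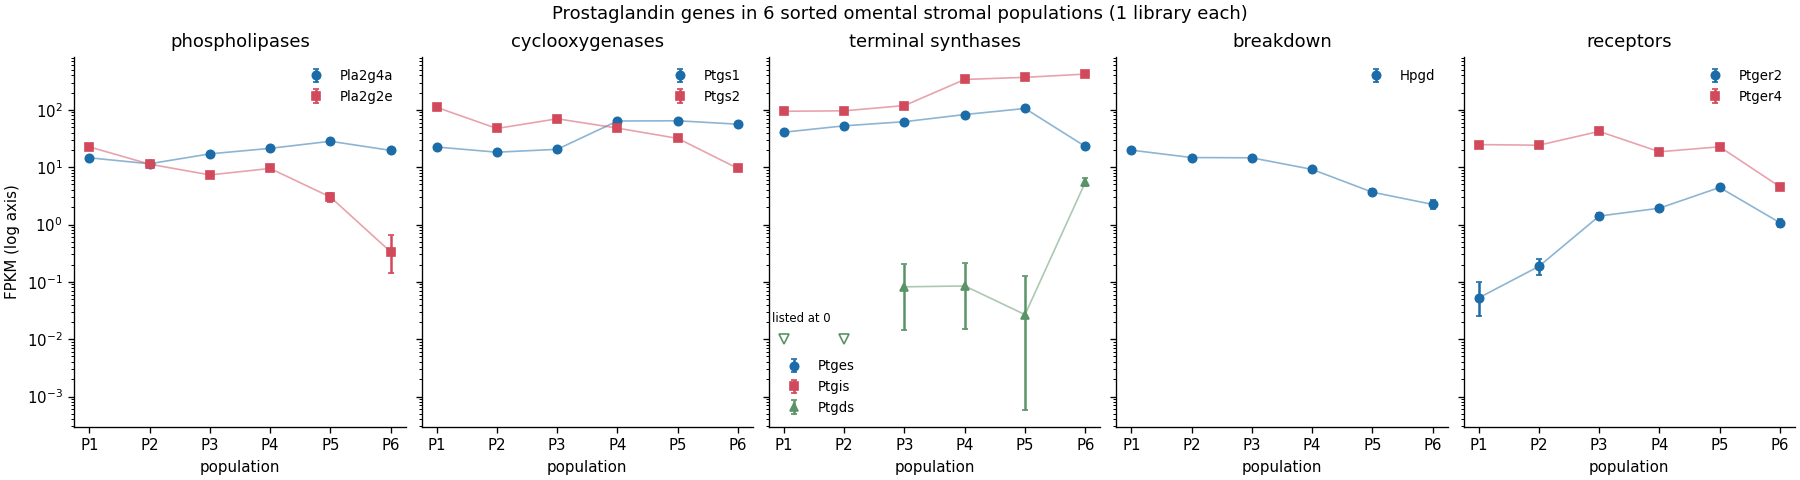
FPKM (log axis) of the 10 genes in P1 to P6, in panels by role, 1 library per point with a 95% interval for counting error; open triangles mark Ptgds where it was listed at 0. Ptgs2, Pla2g2e and Hpgd are highest in P1 and lowest in P6, while Ptgs1 and Ptgis step up between P3 and P4.

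Among the terminal synthases, Ptgis had the highest level of the 10 genes in every population except P1, where Ptgs2 was above it. Ptgis was at 421 FPKM in P6, 369 in P5, 339 in P4, 119 in P3, 96.2 in P2 and 94.4 in P1. The CD105+ populations again lay apart from the rest, with P4 2.85 times P3 (2.80 to 2.91), and P2 and P1 did not differ beyond counting error (1.02, 0.991 to 1.05).

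Ptges followed a different order. It was at 106 FPKM in P5, 82.8 in P4, 62.2 in P3, 52.7 in P2 and 40.8 in P1, and it was lowest in P6, at 23.0. Each neighbouring pair was separated by more than counting error, and the largest step was between P1 and P6, of 1.77 (1.70 to 1.85). The level of Ptgis over that of Ptges was 1.83 to 2.32 in the CD105+ populations, 4.10 in P4, 3.49 in P5 and 18.3 in P6.

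Ptgds, the lipocalin-type prostaglandin D synthase, was listed at 0 in P1 and P2, where 3 reads would have given 0.0801 and 0.0694 FPKM, and at 0.0819, 0.0848 and 0.0268 FPKM in P3, P4 and P5, on 3, 3 and 1 estimated reads. In P6 it was at 5.47 FPKM (4.62 to 6.46, 142 estimated reads), 64.4 times P4 (25.2 to 368). Hpgds, the hematopoietic PGD2 synthase, was at or below 0.0843 FPKM in all 6 libraries, so transcripts of both PGD2 synthases were near the counting floor in P1 to P5.

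Hpgd declined from 19.8 FPKM in P1 to 14.7 and 14.6 in P2 and P3, then to 9.16 (P4), 3.67 (P5) and 2.24 (P6). The breakdown enzyme was thus highest in the population with the most Ptgs2, and its highest over lowest ratio was 8.84. P2 and P3 did not differ beyond counting error (1.01, 0.935 to 1.09), and each other neighbouring pair did.

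The PGE2 receptors of the list differed in level and in order. Ptger4 was at 42.1 FPKM in P3, 24.8 in P1, 24.2 in P2, 22.7 in P5, 18.6 in P4 and 4.55 in P6. P3 stood above P1 by 1.70 (1.64 to 1.77) and P6 below P4 by 4.08 (3.72 to 4.49), while P1 and P2 did not differ beyond counting error (1.02, 0.982 to 1.07).

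Ptger2 was the scarcer receptor in every library, at 4.43 FPKM in P5, 1.93 in P4, 1.40 in P3, 1.08 in P6, 0.186 in P2 and 0.0524 in P1, an 84.5-fold range whose lower end rested on 10 estimated reads. Within each CD105 class it was higher where ALDH was lower. Ptger4 exceeded Ptger2 by 473 times in P1 and by 4.23 times in P6.

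All 10 genes reached 1 FPKM in at least 1 library and varied at least 2-fold between their highest and lowest library. Of the 12904 genes that reached 1 FPKM, 38.1% varied that much, with a median range of 1.63. Of the 32 other pathway genes described below that reached 1 FPKM, 16 did. The members were chosen with earlier results of these data known, so this contrast is no independent evidence about the pathway. P5 held the highest level of 4 members, P1 of 3, P6 of 2 and P3 of 1. Over the 12904 genes the shares highest there were 24.2% in P5, 14.2% in P1, 37.7% in P6 and 8.75% in P3. P6 held the lowest level of 5 members and P1 and P2 of 2 each, with Ptgds listed at 0 in both P1 and P2. No such share over all genes was taken for the lowest levels, so these counts do not set the members apart from other genes.

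The gates were then compared in pairs. In these comparisons a gene was called higher or lower when its FPKM differed at least 2-fold and the higher value was at least 1 FPKM, and genes under 1 FPKM in both libraries were not compared. A call is a size of difference between libraries and not a test. The members and the other pathway genes were chosen with earlier results of these data known. Their shares of calls beside those of all genes are therefore no independent evidence about the pathway. Comparisons that name the same library share its errors. Because these are bulk libraries, fewer cells of a type and less RNA per cell cannot be told apart.

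P1 against P2 asked how high and intermediate ALDH differ within the CD105+ cells. Pla2g2e (2.0-fold) and Ptgs2 (2.34-fold, 2.29 to 2.39) were called higher in P1, which is 2 of the 8 members compared, beside 5.55% of 11803 genes. Pla2g2e lay at the 2-fold limit and lost its call with a pseudocount of 0.1 or 1, though not of 0.01, and with a common sum of FPKM. Of the 6 members not called, Hpgd was 1.35 times higher (1.25 to 1.45) and Ptges 1.29 times lower (1.25 to 1.33) in P1. The median log2 ratio, taken on log2(FPKM + 0.1), was 0.32 for the members and -0.05 for all genes compared.

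P1 was also set against all of P2 to P6, as the population the study named Aldh1a2+ FRCs. Pla2g2e was the member at least 2-fold above each of the others, 1 of 10, beside 0.418% of 12904 genes, and the limits of that value are those given above. Ptgs2 and Hpgd were likewise highest in P1 but by 1.58 and 1.35 over the next population.

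P2 against P3 asked how intermediate and low ALDH differ within the CD105+ cells. Ptger2 was the 1 member called of 9 compared, 7.54 times lower in P2 (5.40 to 10.8), beside 3.91% of 11980 genes. Ptgs2 was 1.48 times lower in P2 (0.678, 0.662 to 0.693, as a ratio of P2 to P3), and Ptger4 was 24.2 against 42.1 FPKM. The median log2 ratio was -0.31 for the members and -0.03 for all genes.

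P4 against P5 made the same ALDH comparison within the CD105- cells. Pla2g2e (3.15-fold, 2.55 to 3.89) and Hpgd (2.50-fold, 2.19 to 2.84) were called higher in P4 and Ptger2 lower (2.30-fold, 2.04 to 2.59), 3 of 9 members beside 5.74% of 12022 genes. Ptgs2 was 1.51 times higher in P4 (1.47 to 1.55), the opposite direction from P2 against P3. Aldh1a2 turned the same way, at 78.8 against 133.7 FPKM in P2 and P3 and 285 against 145 FPKM in P4 and P5. Both genes were highest in P1. They parted elsewhere, with Ptgs2 at 47.3 FPKM in P2 and 48.0 in P4, and P6 had 209 FPKM of Aldh1a2 beside the lowest Ptgs2, 9.50. The difference in Ptgs2 between the CD105 classes was not tested. Ptgs1, Ptgis and Ptges differed by at most 1.28-fold, and the median log2 ratio was -0.12 for the members and -0.04 for all genes.

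P2 against P4 compared CD105+ with CD105- cells at intermediate ALDH. Ptgs1 (3.50-fold, 3.36 to 3.64), Ptgis (3.53-fold, 3.45 to 3.60) and Ptger2 (10.4-fold, 7.46 to 14.7) were called lower in P2, 3 of 9 members beside 13.0% of 12181 genes. None was called higher. The median log2 ratio was -0.65 for the members and -0.08 for all genes.

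P3 against P5 made the CD105 comparison at low ALDH, on libraries that P2 against P4 did not use. The same 3 genes were called lower in the CD105+ library, Ptgs1 by 3.15 (3.03 to 3.27), Ptgis by 3.11 (3.05 to 3.17) and Ptger2 by 3.16 (2.77 to 3.62). Hpgd (3.98-fold, 3.52 to 4.50), Pla2g2e (2.43-fold, 1.96 to 3.03) and Ptgs2 (2.20-fold, 2.14 to 2.25) were called higher. In all, 6 of 9 members were called, beside 14.0% of 12152 genes, and the median log2 ratio was -0.73 for the members and -0.09 for all genes. When levels were divided by Gapdh, the median over all genes moved by 0.47 in P2 against P4 and by 0.53 in P3 against P5, and no called member changed direction.

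**Figure D2:**
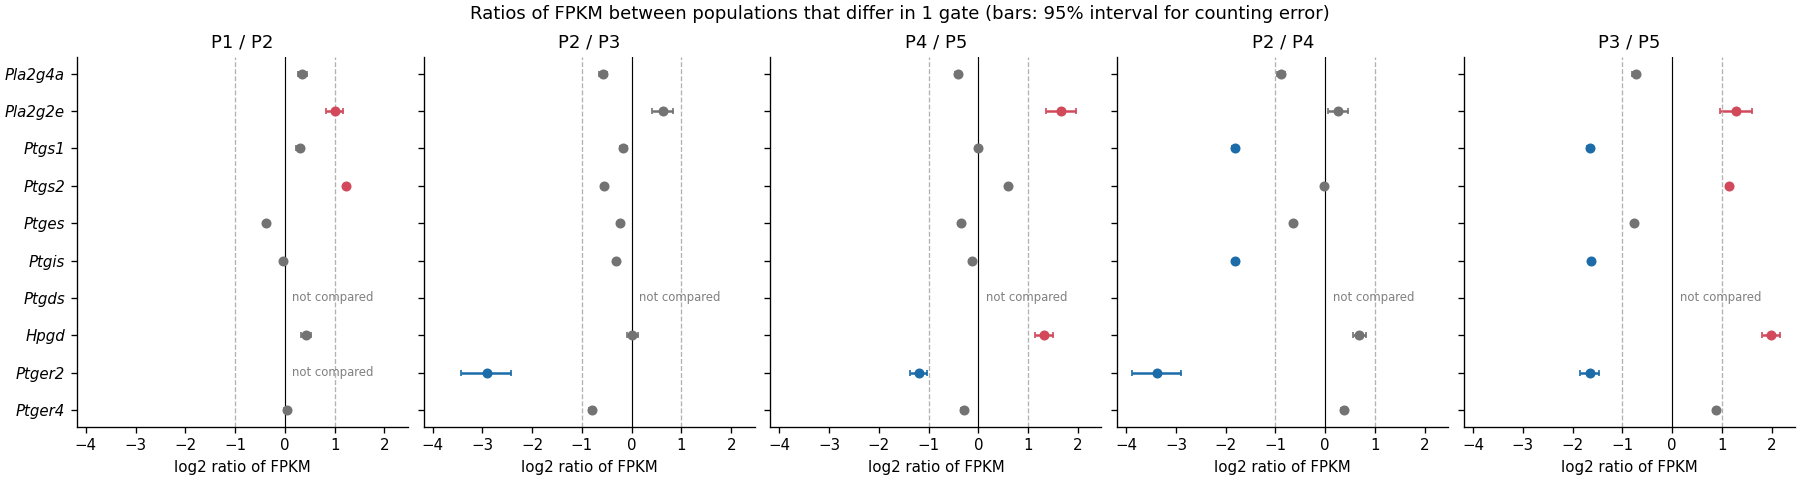
log2 ratio of FPKM for the 10 genes in 5 pairs of populations that differ in 1 gate, with bars for the 95% interval of counting error and dashed lines at 2-fold; red points were called higher and blue points lower. Ptgs1, Ptgis and Ptger2 are blue in both CD105 comparisons, P2 / P4 and P3 / P5.

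P6 differed from P1 to P5 in its low CD140a, its CD105 gate is not given in the sources used here, and a gene was called here when it was at least 2-fold above or below each of the 5. Ptgds was called higher, and Pla2g2e (9.05 times below P5, 4.49 to 21.6), Ptgs2 and Ptger4 were called lower, 4 of 10 members beside 9.88% of 12904 genes. Ptges and Hpgd were also lowest in P6 but within 2-fold of the next population, at 1.77 and 1.63. Ptgis was highest in P6 by 1.14 over P5 (1.12 to 1.16). P6 combined the highest prostacyclin synthase level with the lowest Ptgs2, so that Ptgs1 was its main cyclooxygenase transcript. The median log2 ratio of P6 to the mean of the others was -1.05 for the members and 0.08 for all genes.

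The rest of the pathway was read from 5 lists of related genes, 51 of which were in the files and 32 of which reached 1 FPKM. Of those 32, 16 varied at least 2-fold between libraries. P1 against P2 called 7 of 30 of them (2 higher, 5 lower), or 23.3% beside 5.55% of all genes. P4 against P5 called 3 of 30 (10% beside 5.74%) and P6 against the others 5 of 32 (15.6% beside 9.88%). P2 against P4 called 3 of 32 (9.38% beside 13.0%) and P3 against P5 called 3 of 29 (10.3% beside 14.0%), both below the share of all genes. P2 against P3 called 0 of 30, beside 3.91%. Akr1c18, an aldo-keto reductase called in P4 against P5, was at 1.18 and 0.167 FPKM there, and the other calls are of the genes named below.

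Among the other phospholipases, Pla1a, which removes fatty acids from phosphatidylserine, followed the order of Pla2g2e except that P4 was above P2. It was at 219.9 FPKM in P1, 111 in P4, 99.1 in P2, 67.6 in P3, 21.9 in P5 and 0.732 in P6, and it was called higher in P1 than P2 (2.22-fold), in P4 than P5 (5.08-fold) and in P3 than P5 (3.09-fold), and lower in P6. It was not called in P1 against all others, where P4 was the nearest. Pla2g7, a secreted enzyme that cleaves platelet-activating factor, was called lower in P1 than in P2 (0.502 against 1.83 FPKM).

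Of the other prostanoid synthases, Akr1b3, an aldose reductase that also makes prostaglandin F2α, was at 18.6 FPKM in P1, 10.5 in P5, 7.69 in P4, 6.19 in P6, 4.28 in P2 and 4.16 in P3. It was called higher in P1 than P2 (4.34-fold, 3.84 to 4.94) and lower in P3 than P5 (2.51-fold), and it was not called in P1 against all others. Akr1b8, a related reductase, was at 50.7 FPKM in P6 and at 14.2 to 18.9 in the others. The other PGE2 synthases were even: Ptges3 lay between 50.8 and 58.5 FPKM and Ptges2 between 4.75 and 6.85. Tbxas1, the thromboxane synthase, stayed at or below 0.241 FPKM.

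Of the breakdown and transport genes beyond Hpgd, Abcc4 (2.52-fold) and Ptgr1 (2.14-fold) varied at least 2-fold between libraries and the other 3 did not. Ptgr1 and Ptgr2, which reduce the products of Hpgd, lay between 7.80 and 16.7 FPKM and between 16.1 and 21.3. Slco2a1, the transporter that takes prostaglandins into cells, lay between 8.70 and 12.5 FPKM, and Abcc4, which exports them, was at 2.14 FPKM in P1 and 0.851 in P6. None of the 5 genes of this list was called in any comparison.

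Of the 5 other prostanoid receptors that reached 1 FPKM, 1 was called higher and 2 lower in P6, beside 6.45% and 3.43% of 12904 genes. The remaining pair, Ptger1 and Tbxa2r, were not called in any comparison. Ptgir, the prostacyclin receptor, was at 26.4 FPKM in P3, 22.4 in P2, 15.1 in P5, 12.4 in P1, 12.3 in P4 and 1.54 in P6, so that the receptor was lowest where Ptgis was highest. Ptgfr, the prostaglandin F receptor, was at 3.16 FPKM in P1 and 0.0577 in P6, and both were called lower in P6. Ptger3 (EP3), the PGE2 receptor that lowers cyclic AMP, was called higher in P6 at 36.1 FPKM and lower in P1 (3.86 FPKM) than in P2 (15.8 FPKM, 4.10-fold, 3.68 to 4.59).

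**Figure D3:**
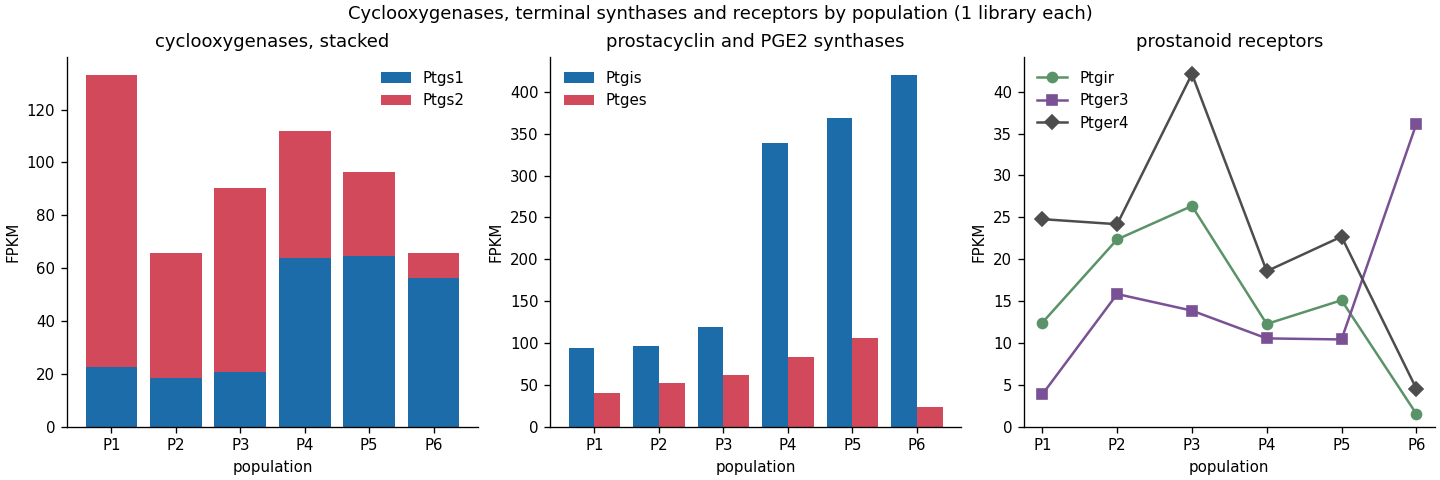
FPKM of both cyclooxygenases (stacked bars), of Ptgis and Ptges (bars) and of 3 prostanoid receptors (points joined for reading) in P1 to P6, 1 library each. P6 has 421 FPKM of Ptgis beside 1.54 of its receptor Ptgir, and Ptger3 is highest there.

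In the lipoxygenase and leukotriene branch, which uses the same arachidonic acid, 3 of 5 genes compared were called lower in P1 than in P2, beside 4.50% of all genes. Alox15, the 12/15-lipoxygenase, was at 21.3 FPKM in P5, 16.2 in P4, 13.8 in P3, 11.6 in P2, 7.40 in P6 and 1.43 in P1. Alox12 was at 0.0268 FPKM in P1 and 1.09 in P2, and Alox5ap at 0.545 and 1.51. In the same libraries macrophage markers summed to 20.6 FPKM in P1 and 32.6 in P2, and lymphoid markers to 5.53 and 7.43. The part of such cells in these values was not tested. Ltc4s, the leukotriene C4 synthase and a relative of Ptges, ran from 5.96 FPKM in P1 to 14.7 in P5 and 3.36 in P6, while Alox5, which starts leukotriene synthesis, was at or below 0.207 FPKM.

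**Figure D4:**
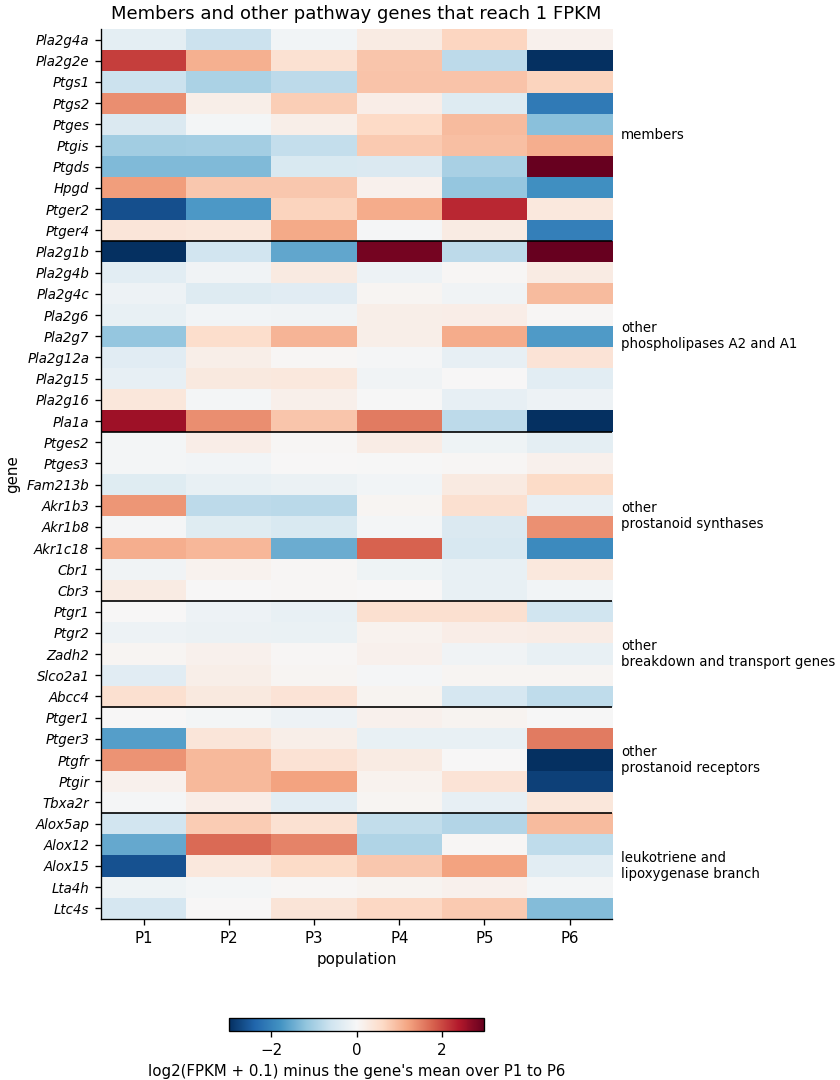
Heat map of the 10 members and the 32 other pathway genes that reached 1 FPKM, in rows by list, against P1 to P6; colour is log2(FPKM + 0.1) minus the mean of the gene over the 6 libraries. Pla2g2e, Pla1a and Hpgd run from red in P1 to blue in P6, and the breakdown and transport rows are paler.

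The members did not share 1 profile. Likeness was measured as the root mean square difference of log2(FPKM + 0.1), centred on each gene, over the 6 libraries, among 9789 genes that reached 5 FPKM. Ptgs1 and Ptgis were the closest members, at 0.25, and Ptgis was the 15th nearest gene to Ptgs1. Ptgs2 lay at 0.43 from Hpgd, at 0.53 from Ptger4 and at 1.71 from Ptgs1. The genes nearest to Ptgis were Wfdc1, Rassf9 and Tgfa, and those nearest to Ptgs1 were Nhsl1, Ntng2 and Cdkn2c. Ltc4s was the nearest gene to Ptges, at 0.11, followed by Twist1 and Cd55. Pparg, the adipogenic nuclear receptor, was nearest to Hpgd, at 0.093, followed by Gas7 and Aoc3. Fscn1, Arhgap24 and Marcks were nearest to Ptgs2, Fam43a, Rrad and Adamts1 to Ptger4, Efcc1, Bmper and Qpct to Pla2g2e, Sh3bp5, Prkab1 and Gm13139 to Pla2g4a, and Npnt, Chrm2 and Hamp2 to Ptgds. Each of these is a match over 6 libraries only.

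The gates were checked against their own genes. Eng (CD105) was at 42.6 to 52.4 FPKM in P1 to P3 and at or below 0.728 in P4 to P6, Pdgfra (CD140a) was at 117 to 154 in P1 to P5 and 5.36 in P6, and Ptprc (CD45) was at or below 0.755 throughout. Aldh1a2, the ALDH gene of the gate list, was at 469 FPKM in P1, 285 in P4, 209 in P6, 145 in P5, 133.7 in P3 and 78.8 in P2. It was thus lower in P2 than in P3 although the ALDH gate of P2 was the higher, while P4 and P5 followed their gates. Of 9 fibroblast genes, Dpt, Lum and Col14a1 were at 6.19 to 8.70 FPKM in P6, whereas Col1a1 (1735 FPKM) and Pdpn (125 FPKM) were highest there and Dcn was at 4350.0 FPKM. In P6, 10 mesothelial markers, among them Msln, Upk3b and Krt19, were all at their highest.

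Markers of other cell types moved with some of these results. The summed level of 11 mesothelial markers (10 of which reached 1 FPKM, with Cdh1 at or below 0.0729) was 73.1 to 148 FPKM in P1 to P3, 757 in P5, 935 in P4 and 3023 in P6. Levels of Ptgs1, Ptgis and, for P6, Ptgds were higher in the same libraries. Between P5 and P6 that sum went from 757 to 3023 FPKM, Ptgs1 from 64.5 to 56.2 and Ptgis from 369 to 421. In P6 the adipocyte genes Adipoq and Cfd (14.7 and 114 FPKM, with Lep listed at 0) and the endothelial markers Kdr and Esam (46.9 and 62.0 FPKM, with Pecam1 at 0.992 and Cdh5 at 0.343) were also highest, as were 6 of 8 listed adipocyte markers and, of 12 listed endothelial markers, 3 of the 4 that reached 1 FPKM. The endothelial sum was 3.09 to 20.1 FPKM in P1 to P5 and 115 in P6, where it was mostly Kdr and Esam. Of the 12 listed endothelial markers, 8 stayed below 1 FPKM in every library. The adipocyte sum, mostly Fabp4, was 151 to 351 across all 6. The part of these cells in the levels of Ptgds, Ptgis and Ptgs1 was not tested. Of 7 mast cell genes, which mark a known source of PGD2, none reached 1 FPKM, and macrophage markers summed to 17.5 to 54.1 FPKM, also highest in P6.

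Pla2g1b, the pancreatic phospholipase, was at 12.9 FPKM in P6, 8.09 in P4, 0.647 in P2, 0.555 in P5 and 0.282 in P3 and was listed at 0 in P1. The summed level of 15 pancreatic acinar genes had the same order, at 2104, 1460.2, 270.3, 171, 28.8 and 5.12 FPKM, and its part in the Pla2g1b value was not tested. That sum was 1460.2 FPKM in P4 and 171 in P5. In the same pair Pla2g2e (9.51 and 3.01 FPKM) and Hpgd (9.16 and 3.67 FPKM) were called higher in P4 and Ptger2 (1.93 and 4.43 FPKM) lower. Ptgs1 was at 63.9 and 64.5 FPKM. The part of acinar RNA in the levels of the members was not tested.

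Ptgs2 is itself an immediate-early gene, so 13 other such genes were set beside it. All 13 were expressed, with Fos at 1761 to 2317 FPKM, and their summed level was 9907 to 11250 FPKM, highest in P3 and lowest in P4. Single genes of the list differed in order: 4 of 13 were highest in P1 and 4 were highest in P6. Junb (1961 FPKM in P1, 1248 in P6) and Nr4a1 (537 and 310.2 FPKM) were highest in P1 and lowest in P6, as Ptgs2 was. Fosb (378 FPKM in P1, 818 in P6), Jun (719 and 1078.5 FPKM) and Atf3 (393 and 934 FPKM) were lowest in P1 and highest in P6. The part of such a response in the level of Ptgs2 was not tested. Egr2 (higher in CD105+ cells, 2.16-fold in P2 against P4 and 2.95-fold in P3 against P5) and Ier3 (lower there) were the genes of this list called in the paired comparisons. In both, 1 of 13 was called higher and 1 lower. The shares of all genes were 5.10% higher and 7.94% lower in P2 against P4, and 7.55% and 6.50% in P3 against P5.

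**Figure D5:**
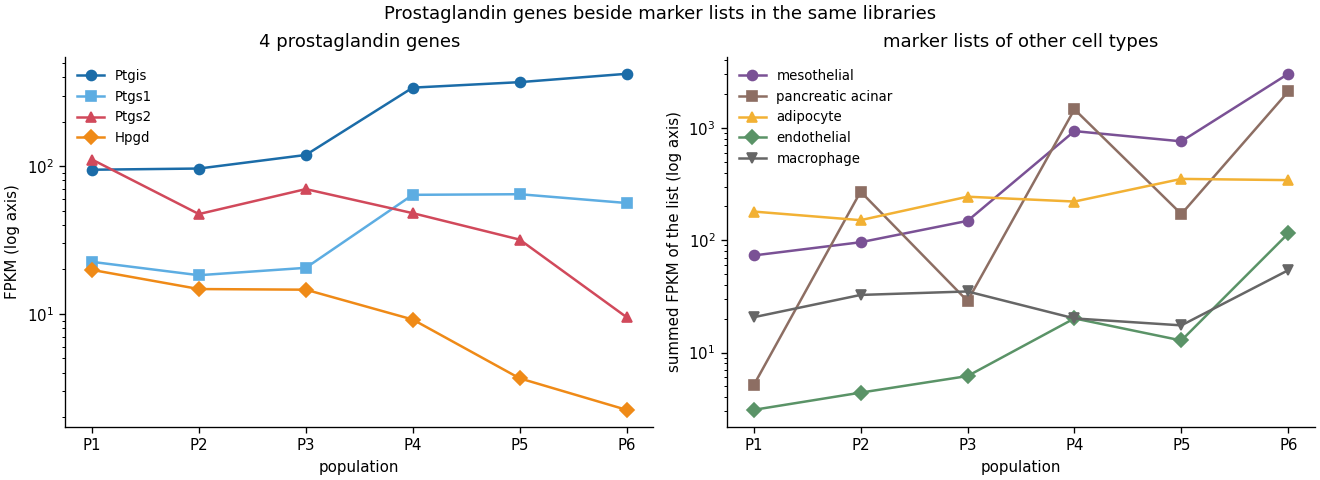
Left, FPKM of Ptgis, Ptgs1, Ptgs2 and Hpgd; right, summed FPKM of 5 marker lists of other cell types, both on log axes against P1 to P6, 1 library each. The mesothelial sum is 73.1 to 148 FPKM in P1 to P3 and 757 to 3023 in P4 to P6, where Ptgis is 339 to 421.

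Depth was recovered from the steps between low FPKM values at 53400000 to 61750000 reads in P1 to P5 and 36950000 in P6, whose low values are therefore the least precise. Between 11340 and 12043 genes reached 1 FPKM in a library. A value of exactly 0 can be a failed estimate in such files, since Col3a1, a major collagen gene of fibroblasts, was listed at 0 in P2 and at 2100.2 to 3390 FPKM elsewhere. Annotated exons of Ptgs1, Ptgis and Ptger2 overlap those of other genes over 5.16%, 6.82% and 1.87% of their length, and those of Ptgr2 and Ltc4s over 47.2% and 29.4%, so reads of these genes are uncertain to that extent.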

How the data were processed

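Total RNA of 6 sorted omental stromal populations, 1 library each, was purified with an RNeasy micro kit, made into NEBNext Ultra RNA libraries and sequenced as single reads of 76 bp. The FPKM values were deposited by the authors, 1 file per library. The submitters' processing notes name mm10, TopHat2 2.0.7 and Cufflinks 2.1.1; the gene annotation and filters are not given in the sources used here. Populations were taken from the labels and their gates from the methods of the study. For 495 repeated rows of a gene symbol, FPKM was summed. Depth was estimated from FPKM steps of 3316 single-transcript genes of at least 800 nt, where 53.0 to 58.5% of low values came within 0.05 of a whole read (10% by chance), so estimated reads are approximate. Counting intervals were exact Poisson for a level and exact conditional binomial (Clopper-Pearson) for a ratio. They cover counting error alone. No test was run, since each population had 1 library. The genes named are the 10 members, genes of the pathway lists that reached 1 FPKM, marker genes beside results they bear on, and the 3 genes nearest in profile to each member above 5 FPKM. The members and lists were chosen with earlier results of these data known. Alternatives covered the pseudocount (0.1, 1 and 0.01), the fold (1.5 and 3), the minimum (none, 0.1 and 5 FPKM), 4 scalings and the treatment of repeated symbols. Scripts were tested on simulated data and run with scipy 1.17.1, pandas 2.3.3, numpy 2.4.6 and matplotlib 3.10.9 under Python 3.11.15. Exon overlaps were read from GENCODE M21 and promoter windows from RefSeq.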

Additional observations from a re-analysis of the deposited data

Results flagged for a closer look

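Ptgs2 differed in opposite directions between the ALDH gates of the CD105 classes. Its ratio of ALDH intermediate to ALDH low was 0.678 (0.662 to 0.693) in CD105+ cells, P2 against P3, and 1.51 (1.47 to 1.55) in CD105- cells, P4 against P5. Each side is 1 library against 1 library, and the difference between the ratios was not tested. Aldh1a2 turned the same way, at 78.8 FPKM in P2 and 133.7 in P3 but 285 in P4 and 145 in P5. Both genes were highest in P1. They parted elsewhere, with Ptgs2 at 47.3 FPKM in P2 and 48.0 in P4, and P6 had 209 FPKM of Aldh1a2 beside the lowest Ptgs2, 9.50. How many of all genes turned this way was not counted.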

How the results depend on the processing

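No paired analysis was possible because the labels carry no replicate numbers and no population has a second library. No direction of a called member turned under any alternative run. The count of members called in P1 against P2 went from 2 to 1 with a pseudocount of 1, to 1 with a pseudocount of 0.1 before the ratio (chosen after seeing the data), to 0 at 3-fold and to 1 with a common sum of FPKM. In P2 against P3 it went from 1 to 2 with no minimum, to 0 with a minimum of 5 FPKM and to 3 at 1.5-fold. In P4 against P5 it went from 3 to 1 at 3-fold, and in P2 against P4 from 3 to 6 at 1.5-fold. For P1 against all others it went from 1 to 0 with a pseudocount of 1 or 0.1, at 3-fold and with a common sum of FPKM, and to 2 at 1.5-fold. Counts in P3 against P5 and for P6 stayed within 1.5 times of the reported ones. Over the scalings, 55 of 60 ratios of members kept their direction. The other 5 (Ptgis in P1 against P2, Hpgd in P2 against P3, Ptgs1 in P4 against P5, Ptgs2 in P2 against P4 and Pla2g4a in P6) were not called. Depth limited Ptgds in P1 to P5, Ptger2 in P1 and P2 and Pla2g2e in P6, each on 40 estimated reads or fewer.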
